A study of Rattus norvegicus with 192 samples.

Results

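Feeding peptide systems were followed through 7 genes in the nucleus accumbens core, the ventral striatal region that links reward to movement and food intake: 1 peptide gene, Cartpt, and 6 receptor genes, Calcr, Mc4r, Glp1r, Npy1r, Npy2r and Npy5r. They are 7 of the 38354 genes measured, and were chosen by name and not by their values. PolyA RNA had been sequenced from outbred laboratory rats, and 192 libraries were labelled. The labels give no strain beyond outbred, and no treatment, sex, age, date or batch. The only label that divides the libraries is the format of the rat identifier: 67 libraries had an all-digit identifier (numeric), 77 an identifier beginning with E21 (E21), 12 an identifier that the submitters had corrected to the E21 format (corrected E21), 2 an identifier beginning with AA1, and 1 a corrected identifier of another format. The remaining 33 libraries carry a note of removal and were not analysed here. Each library bears its own rat identifier and was taken as 1 rat. No source used here says whether the formats stand for cohorts or batches.

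Feeding peptides act on G protein-coupled receptors, and most are best known from the hypothalamus, where neurons that make neuropeptide Y and agouti-related peptide drive eating while neurons that make melanocortin and CART peptides restrain it. The accumbens holds its own stock of these receptors on medium spiny neurons, interneurons and the endings of incoming fibres. Cartpt encodes the CART peptides, which the accumbens is known to make. Calcr encodes the calcitonin receptor, which becomes an amylin receptor when paired with a RAMP protein. Mc4r encodes the receptor through which melanocortin peptides lower food intake, and Glp1r the receptor for glucagon-like peptide 1. Npy1r, Npy2r and Npy5r encode receptors for neuropeptide Y and its relatives, of which Npy2r is known as a receptor on nerve endings that limits transmitter release.

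The start site listed for each of the 7 genes falls at the end from which that gene is read in RefSeq's annotation of GRCr8, the rat genome. Cartpt lies on chromosome 2 (32989215 to 32991794, minus strand), Calcr on chromosome 4 (32615955 to 32691075, minus strand), Mc4r on chromosome 18 (62689798 to 62691685, minus strand), Glp1r on chromosome 20 (8973393 to 9011622, plus strand), and Npy2r on chromosome 2 (170200027 to 170210286, minus strand). Npy1r (27804416 to 27814070, minus strand) and Npy5r (27822055 to 27830012, plus strand) are neighbours on chromosome 16 that run away from each other, with start sites 7985 bases apart. The 250 bases before the RefSeq start were searched on both strands for TGACGTCA (the cAMP response element), TATAAA (the TATA box), GGGCGG (the GC box) and CCAAT (the CCAAT box), which do not overlap one another. The windows of 3 genes are shown because their genes carry the results below: the most abundant in reads, the most variable, and one of the neighbouring pair. Capitals mark the motif matches, and a match on the other strand appears as its reverse complement.
Cartpt, GRCr8, chr2:32991236-32991485, minus strand: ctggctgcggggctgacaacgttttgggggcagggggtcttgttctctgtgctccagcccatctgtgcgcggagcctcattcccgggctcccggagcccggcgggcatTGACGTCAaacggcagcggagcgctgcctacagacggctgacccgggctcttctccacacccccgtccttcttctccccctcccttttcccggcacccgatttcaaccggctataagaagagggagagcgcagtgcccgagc
Calcr, GRCr8, chr4:32691076-32691325, minus strand: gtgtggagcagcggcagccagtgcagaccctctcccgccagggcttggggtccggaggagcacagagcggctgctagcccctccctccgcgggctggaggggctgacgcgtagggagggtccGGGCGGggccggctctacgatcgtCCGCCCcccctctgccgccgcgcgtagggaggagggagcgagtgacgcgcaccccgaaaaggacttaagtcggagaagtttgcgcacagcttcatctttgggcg
Npy5r, GRCr8, chr16:27821805-27822054, plus strand: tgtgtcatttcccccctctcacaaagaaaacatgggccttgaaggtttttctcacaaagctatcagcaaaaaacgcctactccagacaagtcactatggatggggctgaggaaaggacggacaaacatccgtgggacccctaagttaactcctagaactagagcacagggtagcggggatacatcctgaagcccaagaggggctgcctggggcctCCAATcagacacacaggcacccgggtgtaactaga
The Cartpt window held TGACGTCA once, its first base 142 bases before the start, and 1.59% of 33469 promoter windows of this length hold that sequence. The Calcr window held the GC box 2 times and the Glp1r window 4 times, some matches sharing bases, a motif found in 30.5% of windows. Mc4r, Npy2r and Npy5r each held 1 CCAAT, found in 34.0% of windows. None of the 7 windows held TATAAA (12.9% of windows), and the Npy1r window held none of the 4 motifs. Only exact matches were counted, and variants of the motifs, such as other forms of the TATA box, were not searched for. GC content was 65.6% for Cartpt, 70% for Calcr and 75.6% for Glp1r, against 38.8% for Npy2r and a median of 51.2% over all windows. For Cartpt, Npy1r and Npy2r the RefSeq start of the window lies 559, 683 and 7186 bases inside the gene as the table of measurements draws it, so those windows lie within the listed gene.

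A set of 12 libraries stood apart from the labelled tissue. Drd1, the dopamine receptor that marks a main class of medium spiny neuron, was between 154 and 441 CPM (counts per 1000000) in 147 libraries, and between 1.61 and 20.0 CPM in the other 12. In those 12 the summed level of 10 medium spiny neuron markers was 349.5 to 1119 CPM, against 4850 to 10519.9 in the 147 libraries. In 11 of them, with Drd1 below 8 CPM, 7 markers of midbrain dopamine neurons summed to 1305 to 4049 CPM, against 3.96 to 64.4 in the 147. The last, numeric library 3, had cortical markers instead, with Slc17a7 at 1993 CPM. Of the 11, 10 were numeric and 1 was E21. The 147 libraries comprised 56 numeric, 76 E21, 12 corrected E21, 2 AA1 and 1 of the other corrected format, and the results below are from these unless stated. Total estimated counts ran from 14.6 to 61.2 M over all libraries analysed, with a median of 22.9 M, where M stands for 1000000.

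Cartpt, the peptide gene, was read at a median of 132 CPM. It ran from 67.8 through a median of 125 to 204 CPM in the numeric libraries, from 86.4 through 138 to 349 in the E21 libraries, and from 77.1 through 117 to 216 in the corrected E21 libraries. The AA1 libraries were at 164 and 176 CPM and the last at 151. The ranges of the formats overlapped, with the E21 libraries reaching highest: the 5 highest values, 248, 257, 265, 289 and 349 CPM, were all E21. CPM is not scaled to transcript length, so levels are not ranked between genes.

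Calcr, the calcitonin and amylin receptor, varied most. It ran from 2.44 through a median of 24.0 to 86.8 CPM in the numeric libraries, from 7.69 through 30.7 to 72.2 in the E21 libraries, and from 3.98 through 20.9 to 35.9 in the corrected E21 libraries. The AA1 libraries were at 41.7 and 42.7 CPM and the last at 33.0. The highest library thus held 35.5 times the level of the lowest, and both were numeric. The between-library SD was 0.81 on the log2(CPM + 1) scale, exceeded by 1.00% of the 15427 genes whose mean reached 1 CPM. The spread that counting alone would give, from the counts as Poisson, made up 0.536% of the Calcr variance.

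Mc4r, the melanocortin receptor, ran from 2.37 through 7.41 to 11.8 CPM in the numeric libraries, from 2.99 through 8.94 to 17.4 in the E21 libraries, and from 3.50 through 6.42 to 11.3 in the corrected E21 libraries. The AA1 libraries were at 8.17 and 10.4 CPM and the last at 9.10. The bulk of each format overlapped with the others, and of the 8 libraries below 4 CPM 6 were numeric. Glp1r, the receptor for glucagon-like peptide 1, lay at the edge of detection. It ran from 0.104 through 0.789 to 2.50 CPM in the numeric libraries, from 0.137 through 0.735 to 1.55 in the E21 libraries, and from 0.385 through 0.808 to 1.72 in the corrected E21 libraries. The AA1 libraries were at 0.774 and 0.960 CPM and the last at 0.993. The median Glp1r library held 18 estimated counts, 2 of the 147 held fewer than 3, and counting noise made up 25.1% of its variance. Its mean over all libraries, 0.856 CPM, left it below the level tested, so 6 of the 7 genes entered the tests across all genes.

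The 3 neuropeptide Y receptors varied less than Calcr. Npy1r ran from 5.16 through 8.40 to 12.3 CPM in the numeric libraries, from 5.08 through 8.31 to 17.0 in the E21 libraries, and from 7.52 through 8.58 to 10.53 in the corrected E21 libraries, with 5.55 and 7.37 in AA1 and 10.48 in the last. Npy2r ran from 3.81 through 7.67 to 12.5 CPM, from 2.99 through 8.44 to 13.5, and from 4.31 through 6.14 to 11.0 in the same order, with 9.43 and 9.69 in AA1 and 6.62 in the last. Npy5r ran from 1.56 through 2.97 to 5.91 CPM, from 1.497 through 3.04 to 4.94, and from 1.91 through 2.86 to 4.78, with 1.97 and 2.47 in AA1 and 2.65 in the last. All 3 ranges overlapped across formats. The SDs of the tested genes other than Calcr were 0.40 for Mc4r (exceeded by 9.74% of genes), 0.39 for Cartpt (10.4%), 0.37 for Npy2r (11.7%), 0.29 for Npy5r (30.1%) and 0.27 for Npy1r (37.6%), against a median of 0.24 over all genes tested. With the 12 libraries that stood apart the SD was 1.44 for Cartpt, 0.69 for Mc4r and 0.62 for Npy2r.

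**Figure D1:**
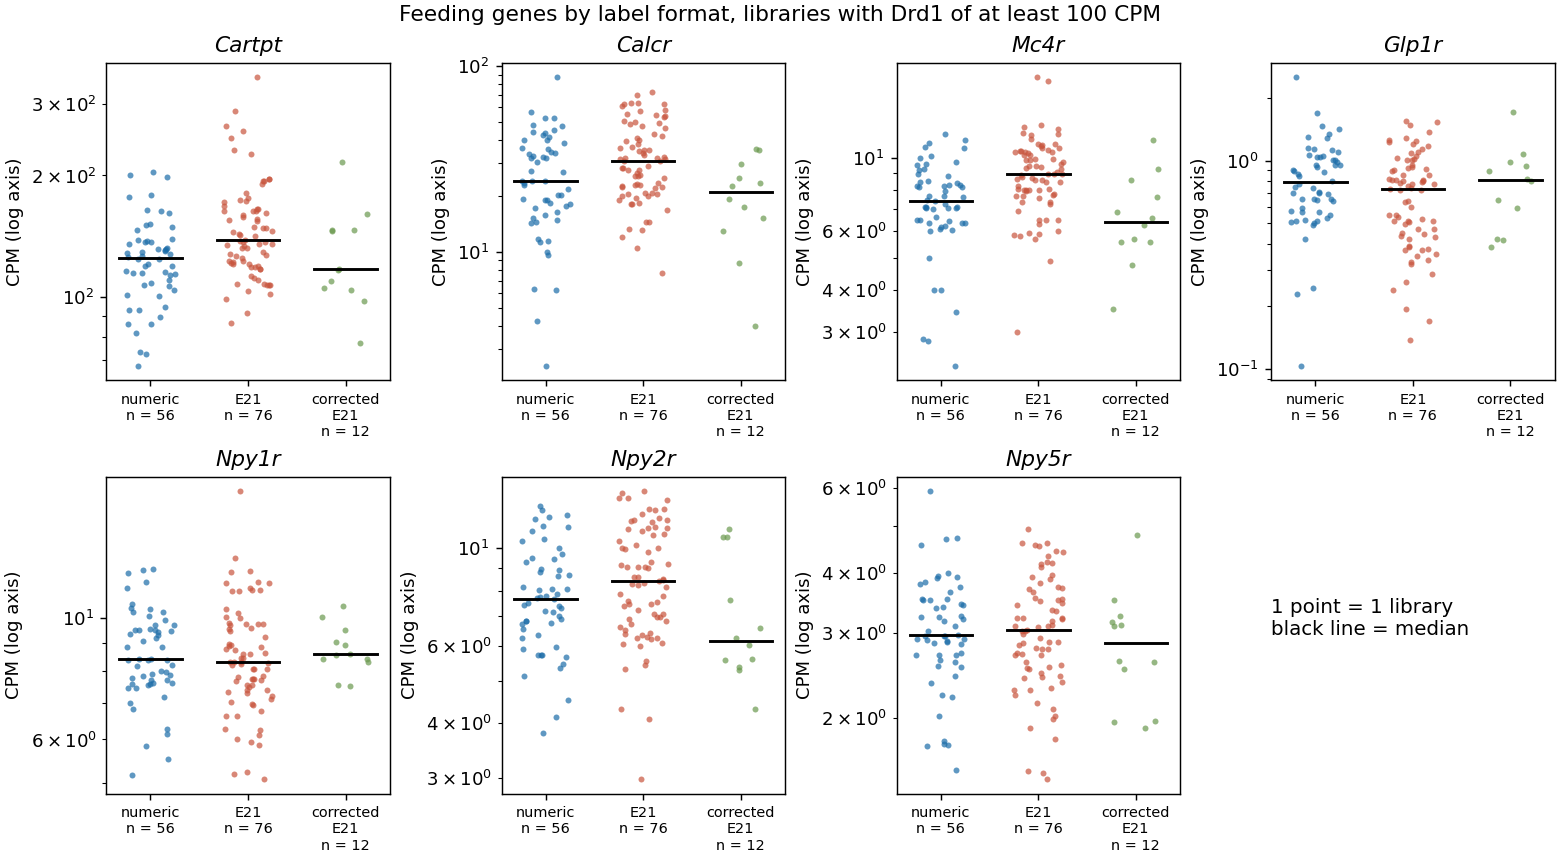
Level of each of the 7 genes (CPM, log axis) by identifier format in libraries with Drd1 of at least 100 CPM, 1 point per library with the median as a black line (56 numeric, 76 E21 and 12 corrected E21 libraries). The formats overlap for every gene, and Calcr spans the widest range, from 2.44 to 86.8 CPM.

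In the 12 libraries that stood apart the genes parted ways. Cartpt was at 1.23 to 8.36 CPM in the 11 libraries with the midbrain markers, below all 147 others, and Mc4r at 0.549 to 1.49 CPM was also below all of them. Npy2r reached 0.382 to 3.12 CPM there, overlapping only with the low end of the 147. Calcr did not follow: it was at 9.60 to 20.0 CPM, inside the range of the 147 libraries. Glp1r was at 0.507 to 3.47 CPM with a median of 1.53, Npy1r at 4.00 to 9.27 and Npy5r at 0.706 to 2.84. Numeric library 3, with cortical markers, held 0.463 CPM of Cartpt, 0.210 of Calcr, 1.94 of Mc4r, 0.0842 of Glp1r and 3.45 of Npy2r. Its Npy1r, at 28.5 CPM, was the highest of all libraries analysed, and its Npy5r was at 5.60. No test was made on these libraries, which were set apart by Drd1 and are not a group of the labels.

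**Figure D2:**
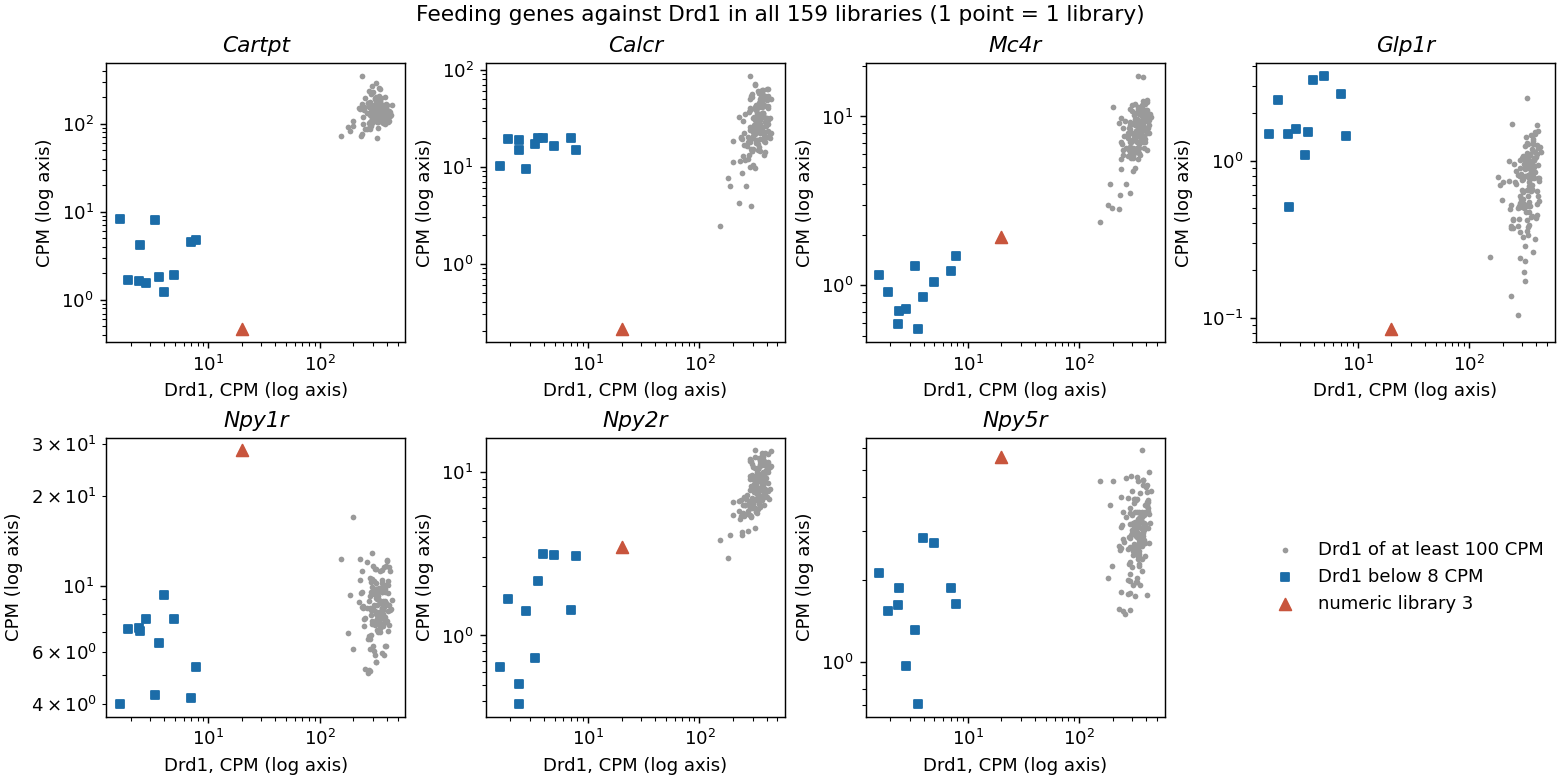
Each gene against Drd1 (both in CPM, log axes) in all libraries analysed, 1 point per library: 147 with Drd1 of at least 100 CPM, 11 below 8 CPM and numeric library 3. In the 11 libraries Cartpt and Mc4r lie below all of the 147 and Calcr stays between 9.60 and 20.0 CPM, and numeric library 3 has the highest Npy1r.

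The formats were compared by limma's moderated test on log2(CPM + 1), adjusted over all 15427 genes by the Benjamini-Hochberg method. Between E21 and numeric libraries 38.8% of all genes passed an adjusted p of 0.05, 12.2% higher and 26.6% lower in E21. Of the 6 genes tested, 3 passed, all higher in E21, and none was lower. Cartpt was higher by 0.25 (SE 0.065, adjusted p = 0.00122), with a mean of 151 ± 46.6 CPM (SD, n = 76) against 126 ± 30.8 CPM (SD, n = 56). Mc4r was higher by 0.26 (SE 0.066, adjusted p = 0.000789), with 9.05 ± 2.34 CPM (SD, n = 76) against 7.46 ± 2.11 CPM (SD, n = 56). Calcr was higher by 0.37 (SE 0.14, adjusted p = 0.0236), with 33.7 ± 15.8 CPM (SD, n = 76) against 27.5 ± 15.8 CPM (SD, n = 56). These differences were smaller than the SD within a format. Npy2r differed by 0.11 (adjusted p = 0.165), Npy1r by -0.019 (0.778) and Npy5r by -0.00091 (0.990), and the sign of the last pair changed with the scaling. Without the filter on low genes Glp1r differed by -0.097 (adjusted p = 0.223) and Calcr missed the threshold (0.0558). The share of called genes that were higher was 31.4% here, 50.4% when libraries were scaled by the median of ratios and 55.1% after quantile normalization, while the 3 calls held under both scalings and Npy2r passed under the latter (0.17, adjusted p = 0.0325).

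Markers of cortical glutamatergic neurons moved with the formats. All 8 were detected, and their summed level ran from 42.5 through a median of 360.4 to 1314 CPM in the numeric libraries, from 26.3 through 149 to 1486 in E21 and from 47.97 through 637 to 1009.7 in corrected E21. Of the 8, 7 were lower in E21 than in numeric libraries, as were 4 of 8 GABA interneuron markers, and 5 of 6 D2 and 5 of 10 shared medium spiny neuron markers were higher. Of the 5 D1 markers only 1 was higher, and 2 of 6 meningeal fibroblast and 2 of 6 endothelial and mural markers were lower. With the cortical score in the model, Calcr differed by -0.029 (adjusted p = 0.854) and Mc4r by 0.12 (0.120), so neither passed, and Cartpt stayed higher by 0.26 (0.00179). The median total count was 25.6 M over all 67 numeric and 21.9 M over all 77 E21 libraries. With log2 of the total count in the model, Cartpt was at 0.16 (0.0859), Calcr at 0.32 (0.122) and Mc4r at 0.24 (0.0111). In bulk tissue, fewer cells of a type and less RNA per cell cannot be told apart. With all libraries of the 3 formats kept, Cartpt differed by 1.03 (8.80e-05), Mc4r by 0.57 (4.91e-06), Calcr by 0.51 (0.00148) and Npy2r by 0.37 (0.00112), 10 of the 11 libraries with midbrain markers being numeric.

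Corrected E21 libraries were compared with E21 libraries in the same fit, in which 12.6% of genes passed, 9.41% higher and 3.22% lower in corrected E21. Of the 6 genes tested, 2 passed, both lower. Calcr was lower by 0.70 (log2 change -0.70, SE 0.24, adjusted p = 0.0385), at 20.8 ± 9.90 CPM (SD, n = 12), and Mc4r by 0.38 (log2 change -0.38, SE 0.12, adjusted p = 0.0195), at 6.80 ± 2.13 CPM (SD, n = 12). Npy2r (-0.27, adjusted p = 0.103), Cartpt (-0.22, 0.187), Npy5r (-0.081, 0.581) and Npy1r (0.048, 0.745) did not pass. Of the 8 cortical markers 7 were higher in corrected E21, as were 3 of 8 GABA interneuron markers, while 4 of 6 D2 and 3 of 10 shared medium spiny neuron markers were lower. None of the 5 D1 markers passed. With the cortical score in the model Calcr differed by -0.091 (0.781) and Mc4r by -0.15 (0.322). Calcr also missed the threshold with all libraries (0.0927), with no filter on low genes (0.0793), with voom weights (0.0504) and with the total count in the model (0.0509), and Mc4r did with all libraries (0.309). Genes called higher were 74.5% of those called here, 53.6% when scaled by the median of ratios and 51.5% after quantile normalization.

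Between corrected E21 and numeric libraries 0% of the 15427 genes passed in limma, with 693 genes at an unadjusted p under 0.05, and none passed with voom weights, with 779 unadjusted. None of the 6 genes tested passed, and their log2 changes ran from -0.33 for Calcr to 0.030 for Npy1r. The 3 comparisons share libraries and are not independent of one another.

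**Figure D3:**
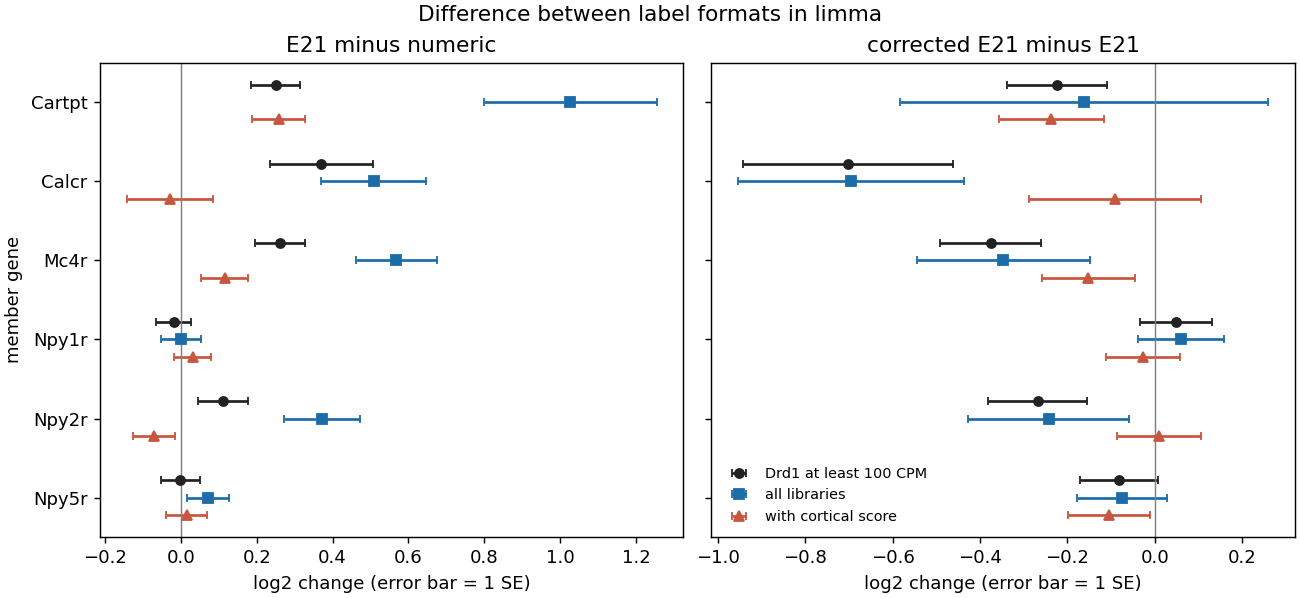
Log2 change of the 6 tested genes between formats in limma, with 1 SE as the error bar, for libraries with Drd1 of at least 100 CPM, for all libraries, and with the cortical score in the model. When the cortical score is added, Calcr moves from 0.37 to -0.029 between E21 and numeric libraries, and Cartpt from 0.25 to 0.26. Between corrected E21 and E21 libraries Calcr moves from -0.70 to -0.091 and Cartpt from -0.22 to -0.24. With all libraries Cartpt is at 1.03 and -0.16 in the same order.

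The genes fell into separate patterns across the 147 libraries. Calcr, Mc4r and Npy2r rose and fell together: r was 0.78 for Calcr with Npy2r (Spearman's rho 0.78), 0.72 for Calcr with Mc4r (rho 0.62) and 0.58 for Mc4r with Npy2r (rho 0.55). Each had a permutation p of 1e-05, the smallest that 100000 resamples can give, and an adjusted p of 5.25e-05 over the 21 pairs. Within numeric libraries the 3 values were 0.83, 0.79 and 0.61, and within E21 libraries 0.75, 0.57 and 0.55. In the 12 corrected E21 libraries r was 0.72 (adjusted p = 0.0805), 0.77 (0.0760) and 0.45 (0.712). After leaving out the 2 libraries farthest from the median of the first gene r was 0.77, 0.68 and 0.56, and after removing the cortical score 0.62, 0.57 and 0.36. The lowest library shows the shared pattern: numeric library 9 had the lowest Calcr (2.44 CPM) and the lowest Mc4r (2.37), with Npy2r at 3.81, and its Slc17a7 was at 1022 CPM, whereas numeric library 64, with the highest Calcr (86.8), had 11.1 CPM of Mc4r, 11.6 of Npy2r and 7.26 of Slc17a7.

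Npy1r and Npy5r, the neighbours on chromosome 16, formed another pair, with r = 0.43 (rho 0.41, permutation p = 1e-05, adjusted p = 5.25e-05). Within formats r was 0.34 in numeric (adjusted p = 0.0411), 0.48 in E21 (5.25e-05) and 0.63 in the 12 corrected E21 libraries (0.202), and without the 2 farthest libraries 0.40. Over 1897 pairs of genes whose start sites lie at most as far apart, the median r was 0.16, and 21.3% of those pairs had a higher r than this one. Npy1r showed no relation past the threshold to Calcr (r = 0.00093, adjusted p = 0.991) or Npy2r (0.058, 0.538). With Mc4r its r was 0.10 (0.308), at -0.22 within numeric (0.240) and 0.38 within E21 libraries (0.00241). Npy5r had weak positive r with Mc4r (0.23, adjusted p = 0.0167) and Npy2r (0.22, 0.0216), which were 0.015 and 0.14 within numeric libraries and 0.45 and 0.36 within E21.

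Cartpt had no positive r past the threshold with a receptor gene. Its r was 0.026 with Calcr (adjusted p = 0.789), 0.12 with Mc4r (0.295) and -0.073 with Npy2r (0.443), the last at 0.020 within numeric and -0.31 within E21 libraries (adjusted p = 0.0167). It was -0.28 with Npy5r (adjusted p = 0.00336), and -0.26 within numeric, -0.30 within E21 and -0.32 within corrected E21 libraries, of which only that in E21 passed (adjusted p = 0.018). With Npy1r it was -0.22 (0.0216), and -0.11 (0.300) with median-of-ratios scaling. Over the 147 libraries no Pearson r of Glp1r passed. The highest was 0.18 with Npy2r (adjusted p = 0.0633), for which Spearman's rho of 0.21 did pass (0.0281). Within numeric libraries Glp1r had r of 0.36 with Mc4r (0.0323) and 0.34 with Calcr (0.0432), which were 0.11 and -0.030 within E21, and within E21 it had 0.28 with Npy5r (0.0311), which was -0.026 within numeric. These rest on the low counts of Glp1r given above. In all, 8 of 21 pairs passed over the 147 libraries. The share that would pass among pairs of all genes was not computed.

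**Figure D4:**
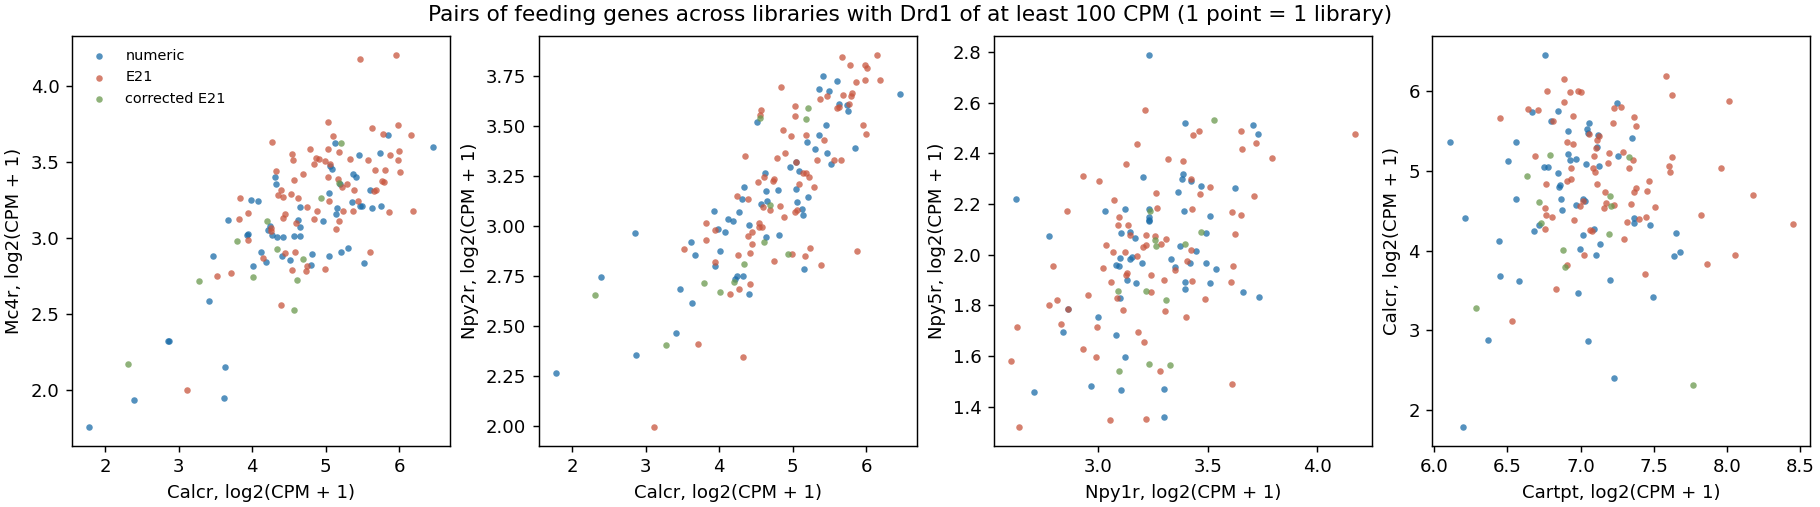
Pairs of genes (4) on the log2(CPM + 1) scale in libraries with Drd1 of at least 100 CPM, 1 point per library coloured by format. Calcr rises with Mc4r (r = 0.72) and Npy2r (r = 0.78), Npy1r with Npy5r (r = 0.43), and Cartpt shows no such relation to Calcr (r = 0.026).

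Scores of cell type markers were set beside each gene, 56 relations in all, of which 33 passed. The share of all 15427 genes that would pass with these scores was not computed, so these relations are not shown to be particular to the 7 genes. A score is the mean of the standardised log2 values of a list. Calcr, Mc4r and Npy2r fell with the cortical score, with r of -0.67, -0.56 and -0.63, and rose with the D2 medium spiny neuron score, with r of 0.61, 0.63 and 0.59, and with the score of cholinergic neurons, the large interneurons of the striatum, with r of 0.59, 0.59 and 0.66. With the D1 score their r was 0.49, 0.54 and 0.57. Each of these 12 had an adjusted permutation p of 4e-05, and each kept its sign within numeric, E21 and corrected E21 libraries. Without the 2 farthest libraries the 3 cortical values were -0.65, -0.53 and -0.62.

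Npy1r went the other way on the cortical score, with r = 0.25 (adjusted p = 0.00504), 0.46 within numeric, 0.14 within E21 and -0.16 within corrected E21 libraries. It rose with the GABA interneuron score (r = 0.37, adjusted p = 4e-05), a list that includes its ligand gene Npy, with r of 0.10 within numeric, 0.52 within E21 and -0.20 within corrected E21 libraries. Npy1r fell with the oligodendrocyte score (-0.37, 4e-05), and Npy5r did so at -0.27 (0.00183), but in the 12 corrected E21 libraries these were 0.15 and 0.25. Npy2r (-0.28, 0.00183), Mc4r (-0.27, 0.00226) and Calcr (-0.21, 0.0173) fell with that score too, at -0.17, 0.27 and -0.14 within corrected E21 libraries. Glp1r was highest with the cholinergic score (r = 0.35, adjusted p = 0.000132), at 0.38 within numeric and 0.34 within E21 libraries. Npy5r was also highest with that score (r = 0.29, adjusted p = 0.000973), at 0.061 within numeric, 0.53 within E21 and -0.32 within corrected E21 libraries. Cartpt had r of 0.28 with the D1 score (0.00183) and 0.33 with the D2 score (0.000342), which were 0.63 and 0.42 within numeric, -0.15 and 0.046 within E21, and both 0.54 within the 12 corrected E21 libraries. The difference between formats was not tested. Cartpt also fell with log2 of the total count (-0.33, 0.000132), at -0.094 within numeric and -0.35 within E21 libraries. Mc4r fell with the total count as well (-0.19, 0.0390), at -0.27 within numeric and 0.26 within E21 libraries, while its Spearman's rho did not pass (-0.12, 0.202). With the meningeal fibroblast score Cartpt fell (-0.34, 0.000112), as did Calcr (-0.28, 0.00183), Npy2r (-0.24, 0.00524) and Mc4r (-0.22, 0.0154). Npy1r rose with that score (0.25, 0.00457). Within the 12 corrected E21 libraries the values of Calcr, Npy2r and Mc4r were 0.61, 0.44 and 0.55. The part of cell makeup and depth in these relations was not tested.

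**Figure D5:**
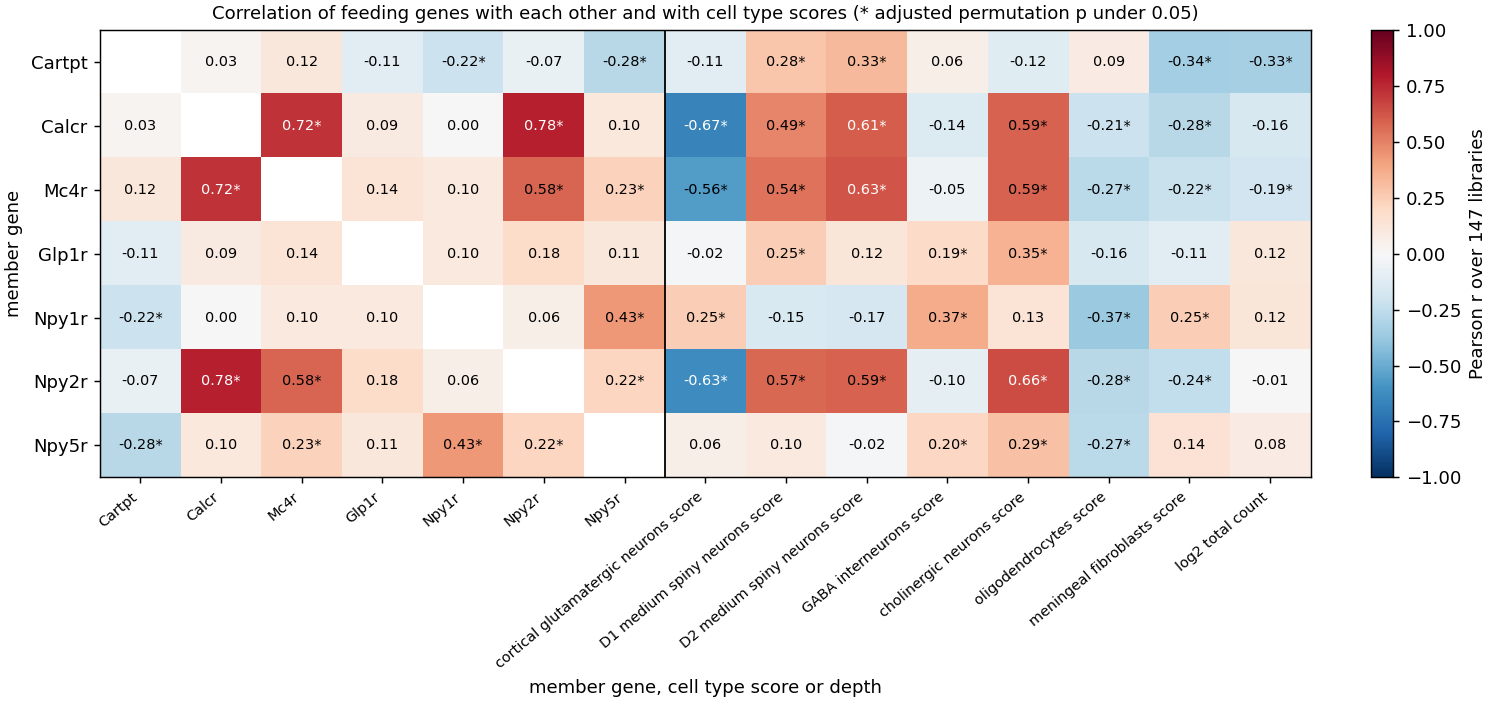
Pearson's r over 147 libraries between the 7 genes (left) and between each gene and 7 cell type scores and log2 total count (right); blue is negative, red positive, and an asterisk marks an adjusted permutation p under 0.05. Calcr, Mc4r and Npy2r share one profile, negative with the cortical score (-0.67, -0.56 and -0.63), and Npy1r pairs with Npy5r (0.43).

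Among the genes tested, those closest to each member by r over the 147 libraries were named as a description. Genes with a symbol made from a locus number (LOC, RGD, AABR or ENSRNOG) were left out of this ranking. Calcr was closest to Arhgap36 on the X chromosome (r = 0.90), then to Peg10, a retrotransposon-derived gene on chromosome 4 whose start lies 1118 kb away (0.84), and Dio3, which encodes the deiodinase that inactivates thyroid hormone (0.81). Within formats the r with Arhgap36 was 0.93, 0.85 and 0.95. Mc4r was closest to Map2k1 (0.78), a kinase of the MAP kinase cascade, Lamp5 (0.75) and Arhgap36 again (0.75). Npy2r was closest to Ahi1 (0.81), Rab9b (0.79) and Dlk1 (0.79).

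Cartpt was closest to Srm, the spermidine synthase gene (r = 0.76), Ap1s1 (0.72) and Pdlim7 (0.72), and these lay at 0.47 to 0.67 within numeric and at 0.74 to 0.80 within E21 libraries. Npy1r was closest to Mef2c, a neuronal transcription factor gene (0.56), Dnm1 (0.53) and Prrg3 (0.52). Npy5r was closest to Serinc1 (0.57), Mosmo (0.54) and Nap1l3 (0.53), and Glp1r to Grin3a, an NMDA receptor subunit gene (0.49), Ubfd1 (0.46) and Spon1 (0.46). Within corrected E21 libraries these r values were 0.12, -0.37 and 0.25 for Npy1r, in the order named. They were 0.16, -0.068 and -0.016 for Npy5r, and 0.15, -0.027 and 0.40 for Glp1r. Over the 147 libraries the r values of Glp1r, Npy1r and Npy5r were lower than those of the other 4 genes. Counting noise made up 25.1%, 12.1% and 20.5% of their variance, against 0.437% to 6.42% for the others.

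The ligands of these receptors were measured too. Npy, the ligand gene of Npy1r, Npy2r and Npy5r, had a median of 98.3 CPM and ran from 59.2 to 371.9 CPM. The other ligand genes, picked after their values were seen, were low: Pomc, the source of melanocortins, had a median of 1.07 CPM and a highest value of 3.16, and Agrp, whose product blocks Mc4r, 0.978 and 1.89. Gcg (glucagon-like peptide 1), Iapp (amylin) and Pyy (peptide YY) had a median of 0 CPM, with highest values of 0.555, 0.106 and 0.148. Mc3r, the other neural melanocortin receptor, had a median of 0.134 CPM in the 147 libraries and of 20.2 CPM in the 11 libraries with midbrain markers. Of the receptor partners, Ramp1 had a median of 117 CPM, Ramp2 11.8 and Ramp3 4.64, and Mrap2, which modulates melanocortin receptors, 27.1.

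In the wider list of 81 other feeding genes, 45 reached a mean of 1 CPM and were tested. Between E21 and numeric libraries 5 were higher and 18 lower, with a median log2 change of -0.076 against -0.030 over all genes, of which 12.2% were higher and 26.6% lower. Of 13 peptides tested none was higher and 3 lower, of 18 receptors 2 were higher and 9 lower, and of 14 partners and processing enzymes 3 were higher and 6 lower. Atrnl1, an attractin relative, was lower (-0.32, SE 0.052, adjusted p = 4.47e-07), Ramp1 higher (0.28, SE 0.049, 3.45e-06), and the receptor genes Ntsr1 (-0.33, SE 0.063, 1.11e-05) and Lepr (-0.34, SE 0.067, 2.38e-05) lower. Mrap2 was higher by 0.10 (0.0236), and the prohormone convertase genes Pcsk1 (-0.19, 0.00124) and Pcsk2 (-0.17, 0.0124) were lower. With the cortical score in the model Mrap2 (0.015, 0.748) and Pcsk1 (-0.12, 0.0515) no longer passed, and with the total count Mrap2 (0.088, 0.121) and Pcsk2 (-0.12, 0.162) did not. Mrap2 also missed the threshold with no filter on low genes (0.0523). Npy (-0.089, 0.258), Calcrl (0.043, 0.497), Ramp2 (0.072, 0.425) and Ramp3 (0.027, 0.725) did not pass, and the signs of Npy, Ramp2 and Ramp3 changed with all libraries. Mc3r, 1 of the 45, reached a mean of 1 CPM through the libraries left out of the test, and no difference is given for it. Other genes of the 45 had medians below 1 CPM in the libraries kept, among them Grp (0.618) and Crhr2 (0.706). In the libraries left out, the medians of Grp and Crhr2 were 16.9 and 4.16 CPM. Mc3r, Grp and Crhr2 stay in the counts and median changes given here and for the next comparison.

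Between corrected E21 and E21 libraries 9 of the 45 were higher and 2 lower, with a median of 0.096 against 0.024 over all genes, of which 9.41% were higher and 3.22% lower. The higher ones included Atrnl1 (0.41, SE 0.092, adjusted p = 0.000892), the receptor genes Crhr1 (0.31, SE 0.074, 0.00215), Ntsr1 (0.44, SE 0.11, 0.00372) and Nmbr (0.73, SE 0.20, 0.00616), and Pcsk2 (0.29, 0.0323). The 2 lower ones were Ramp1 (-0.28, SE 0.087, 0.0185) and Calcrl (-0.25, SE 0.085, 0.0395). Calcrl forms receptors for calcitonin gene-related peptide and adrenomedullin with the RAMP proteins. Median Ramp2 was 11.2 CPM in E21 and 11.7 in corrected E21 libraries, and median Ramp3 was 4.62 and 5.60. With the cortical score in the model Atrnl1 (0.23, 0.0502), Crhr1 (0.11, 0.171), Ntsr1 (0.17, 0.194), Nmbr (0.17, 0.420), Ramp1 (-0.16, 0.187) and Calcrl (-0.23, 0.0642) no longer passed. With all libraries Crhr1 (0.101), Ntsr1 (0.655), Pcsk2 (0.0569), Calcrl (0.0621) and Ramp1 (0.573) missed the threshold. Pcsk2 also did so with only the 2 formats (0.100), median-of-ratios scaling (0.0563), no filter (0.0657) and the total count in the model (0.0503), and Calcrl with no filter (0.0774).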

How the data were processed

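The data are RNA-seq of polyA RNA from tissue of 159 rats labelled as nucleus accumbens core. The submitters' processing notes name kallisto 0.48 for quantification; no source used here gives the annotation, the build or the step from transcripts to genes. The deposited values were read as log2 of an estimated count plus 1 for 38354 genes, not scaled to library size. They were turned back to counts, divided by the library total per 1000000 (CPM) and analysed as log2(CPM + 1), so fold changes of low genes are understated. Counts that pseudoalignment shares between similar or overlapping genes are uncertain, as no source used here gives the strand.

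Libraries with Drd1 of at least 100 CPM entered the main tests. Identifier formats were tested in limma 3.58.1 (R 4.3.3, moderated test with trend, two-sided) over genes whose mean reached 1 CPM in all libraries, with Benjamini-Hochberg adjustment at 0.05, after a check on simulated data. Log2 values, not counts, were deposited, and the main test was made on log2(CPM + 1), with voom weights from the counts turned back as an alternative. Correlations had two-sided permutation p-values from 100000 resamples, run in Python 3.11.15 with scipy 1.17.1. The highest r between libraries was 0.994 and none were merged. The p-values set differences and correlations against the spread between these libraries, which were taken as independent. No label says how rats were sampled, so that independence could not be checked. The alternatives were all libraries, 2 groups only, median-of-ratios scaling, quantile normalization, a pseudocount of 0.5, no filter, voom weights, and the cortical score or log2 total count as a covariate. Of the symbols, 38278 matched RefSeq GRCr8, and promoter windows are from RefSeq for that build.

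The text names the 7 genes, up to 4 other feeding genes per comparison with the smallest p, and list markers. It also names Npy, Mc3r, Calcrl, Ramp1, Ramp2, Ramp3, Mrap2, Pcsk1, Pcsk2, the other ligand genes, and Grp and Crhr2 for the filter. The 3 genes closest to each member are named as well, with locus-number symbols left out. The genes and lists were chosen with earlier results of these data known.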

Additional observations from a re-analysis of the deposited data

How the results depend on the processing

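Genes called between E21 and numeric libraries numbered 5987, and 3319 with log2 total count as a covariate; between corrected E21 and E21 libraries 1948, and 765 with all libraries and 1265 with only the 2 groups; between corrected E21 and numeric libraries 0, and 17 with no filter on low genes. Of 21 pairs of members 8 passed, and 15 with all libraries and 14 after removing the cortical score. The median levels of the 7 genes moved by less than 1 SD with median-of-ratios scaling and with all libraries, the only alternatives tried for levels.

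Signs changed as follows, and the cause was not tested. In E21 minus numeric, all libraries gave a log2 change of -0.16 for Ramp2, -0.12 for Ramp3, -0.040 for Mrap2, 0.33 for Npy and 0.072 for Npy5r; the cortical score gave 0.015 for Npy5r, -0.029 for Calcr, -0.070 for Npy2r, 0.031 for Npy1r and 0.0012 for Npy; log2 total count gave 0.014 for Npy1r, -0.015 for Ramp3 and 0.022 for Npy5r. Median-of-ratios scaling gave 0.023 for Npy5r and 0.010 for Npy1r, quantile normalization 0.035 for Npy1r and 0.061 for Npy5r, and voom weights 0.0012 for Npy5r. In corrected E21 minus E21, the cortical score gave 0.015 for Mrap2, -0.027 for Npy1r and 0.0095 for Npy2r, and quantile normalization -0.0047 for Npy1r. In corrected E21 minus numeric, all libraries gave 0.13 for Npy2r and 0.22 for Mc4r, and log2 total count -0.029 for Cartpt.

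With all libraries, which form separate clusters, r was 0.065 for Cartpt with Npy1r, 0.70 with Npy2r and 0.28 with Npy5r, -0.099 for Calcr with Npy1r, and for Glp1r -0.30 with Mc4r, -0.22 with Npy2r, -0.13 with Npy1r, -0.13 with Npy5r, -0.39 with the D1 score and -0.13 with the cholinergic score; Npy1r with the meningeal score was at -0.067. For Cartpt with Calcr r was -0.063 after removing the cortical score and -0.072 after removing the mean of each format, and for Calcr with Npy1r it was -0.00011 with a pseudocount of 0.5. Depth limits Glp1r most, at a median of 18 estimated counts. The labels share no replicate numbers between formats. No paired analysis was possible because no label pairs the libraries.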
